A study of Mus musculus with 4 samples.

Results

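The genes described here are the cadherins, the non-clustered protocadherins, the Fat and Dachsous giant cadherins and the catenins that tie cadherins to the cell interior. They were chosen by name, as probe sets that the platform annotation pairs with exactly 1 symbol of these families, which gave 94 of 45037 probe sets and 45 of 18193 genes. Cultured mesenchymal stem cells (MSC), adherent stromal cells, of C57BL/6 mice were profiled on Affymetrix arrays, with 2 lines from bone marrow and 2 lines from flushed colon and 1 array per line. All lines were grown in the same low-glucose medium with serum and taken between passages 5 and 10, and no other treatment is given. The lines are called biological replicates, but whether they came from separate animals is not given, so the tests measure the spread between these cultures. Of 8 measured stromal markers, 8 lay above the filter on low values in these cells. Ptprc, the pan-leukocyte marker, reached at most 28.6, the epithelial marker Epcam at most 19.6 and the endothelial marker Pecam1 at most 2.48. Other markers of these cells were measured above the filter: 7 of 10 for macrophages, with summed intensities of 1158 to 3487 in bone marrow and 1836 to 2953 in colon, and 3 of 10 for endothelium, with sums of 170 to 247 and 252 to 354. Lyz2 reached 1589 and Fcer1g 640 in bone marrow line 1, and Cd53 reached 1333 in colonic line 2. Cd14 lay between 573 and 963 and Csf1r between 148 and 324 over all arrays. Tyrobp, at most 2.15, and Adgre1, at most 32.1, were below the filter by their means. Of 4 osteoblast markers 3 lay above the filter, with sums of 276 to 1749 in bone marrow and 162 to 336 in colon. Of 8 enteric glia and neuron markers it was 2, with sums of 422 to 1074 and 350 to 1011. Sp7, of the osteoblast list, reached 1629 in bone marrow line 1, and Uchl1, of the enteric list, 814 in colonic line 1. The part of such cells in the results was not tested.

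Cadherins are calcium-dependent adhesion proteins that bind like molecules on the neighbouring cell through repeated extracellular domains. Classical cadherins hold p120-catenin and beta-catenin (or plakoglobin) on their tails, and alpha-catenin joins this complex to actin. Type I members such as E-cadherin (Cdh1) and N-cadherin (Cdh2) mark epithelial and mesenchymal or neural tissue, and type II members such as Cdh11, the osteoblast cadherin, are common in stroma. Protocadherins lack the classical catenin-binding tail, Cdh13 has a lipid anchor in place of a tail, and Fat4 with Dchs1 signals planar polarity.

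Intensity is the deposited brightness of a probe set and has no fixed unit, so genes are compared between arrays of the same probe set. Summed intensities of markers add different probe sets and mostly follow the brightest ones. The filter and the choice of the brightest probe set also set different probe sets side by side. A gene was tested when the mean of its brightest probe set over the 4 arrays, taken on the log scale, exceeded the 40th percentile of probe sets, an intensity of about 31.9. This left 26 of the 45 genes among 12920 tested in all. The 19 genes below it were Cdh4, Cdh5, Cdh7, Cdh8, Cdh9, Cdh16, Cdh18, Cdh19, Cdh20, Pcdh8, Pcdh9, Pcdh10, Pcdh11x, Pcdh12, Pcdh15, Pcdh17, Fat3, Dchs1 and Ctnna3. None of their 41 probe sets exceeded 56.1 on any array, the highest value being that of Pcdh9 in colonic line 1. For Cdh5, the cadherin of endothelium, the brighter probe set read 24.2 and 15.4 in bone marrow against 11.2 and 22.9 in colon, and Cdh19, a cadherin of glial precursors, lay between 5.53 and 22.2. Cdh4, or R-cadherin, read 25.95 and 25.6 in bone marrow against 30.2 and 26.5 in colon with its brightest probe set. Dchs1 read 13.4 and 46.7 in bone marrow against 17.65 and 11.1 in colon.

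Differences are given on the scale log2(intensity + 13.66), colonic minus bone marrow, with the standard error (SE) of limma, which understates ratios near the floor. With limma and Benjamini-Hochberg adjustment over all 12920 genes, 0 of the 26 genes passed an adjusted p of 0.05, and the share of all genes called was 0%. Without colonic line 1, 33 genes passed over all genes and 0 in the family. With all 4 arrays the smallest adjusted p in limma was 0.389 in the family and 0.0502 over all genes, just above the threshold. At an unadjusted p below 0.05 stood 4 genes, with 3 higher and 1 lower in colonic MSC, beside 6% of all genes tested (3.3% higher and 2.7% lower). These 4 were Cdh10, Pcdh7, Ctnnd2 and Cdh13. Only Cdh10 remained below that p whichever array was left out. Without bone marrow line 2 the count was 2, Cdh10 and Pcdh7, and without colonic line 2 it was 6, Cdh6 and Jup being added. Without bone marrow line 1 Pcdh20 took the place of Cdh13, and without colonic line 1 Cdh17 and Pcdh19 took those of Pcdh7 and Ctnnd2. The arrays of the tissues did not overlap in 8 genes, 6 higher and 2 lower in colon, where the share of all genes was 33.5%, with 18.4% higher and 15.1% lower. A gap of at least 2-fold between the nearest arrays of either tissue was found in 3 genes, Cdh10, Pcdh7 and Cdh13, beside 2.69% of all genes (1.58% higher, 1.11% lower). Leaving out an array removes a constraint, and that count was then 5 without bone marrow line 1, 6 without colonic line 1 and 7 without colonic line 2. With the probe sets of a gene above the filter averaged it was 2, as Cdh13 no longer had such a gap. For Cdh10 only the brightest probe set was above the filter, so averaging could not change its value. Genes could pass the filter through the tissue where they were bright, which favours genes that differ: Cdh10 and Cdh6 lay below it by their bone marrow mean, and Cdh15 and Pcdh20 by their colonic mean. The median difference was 0.03 over the 26 genes and 0.01 over all genes.

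**Figure D1:**
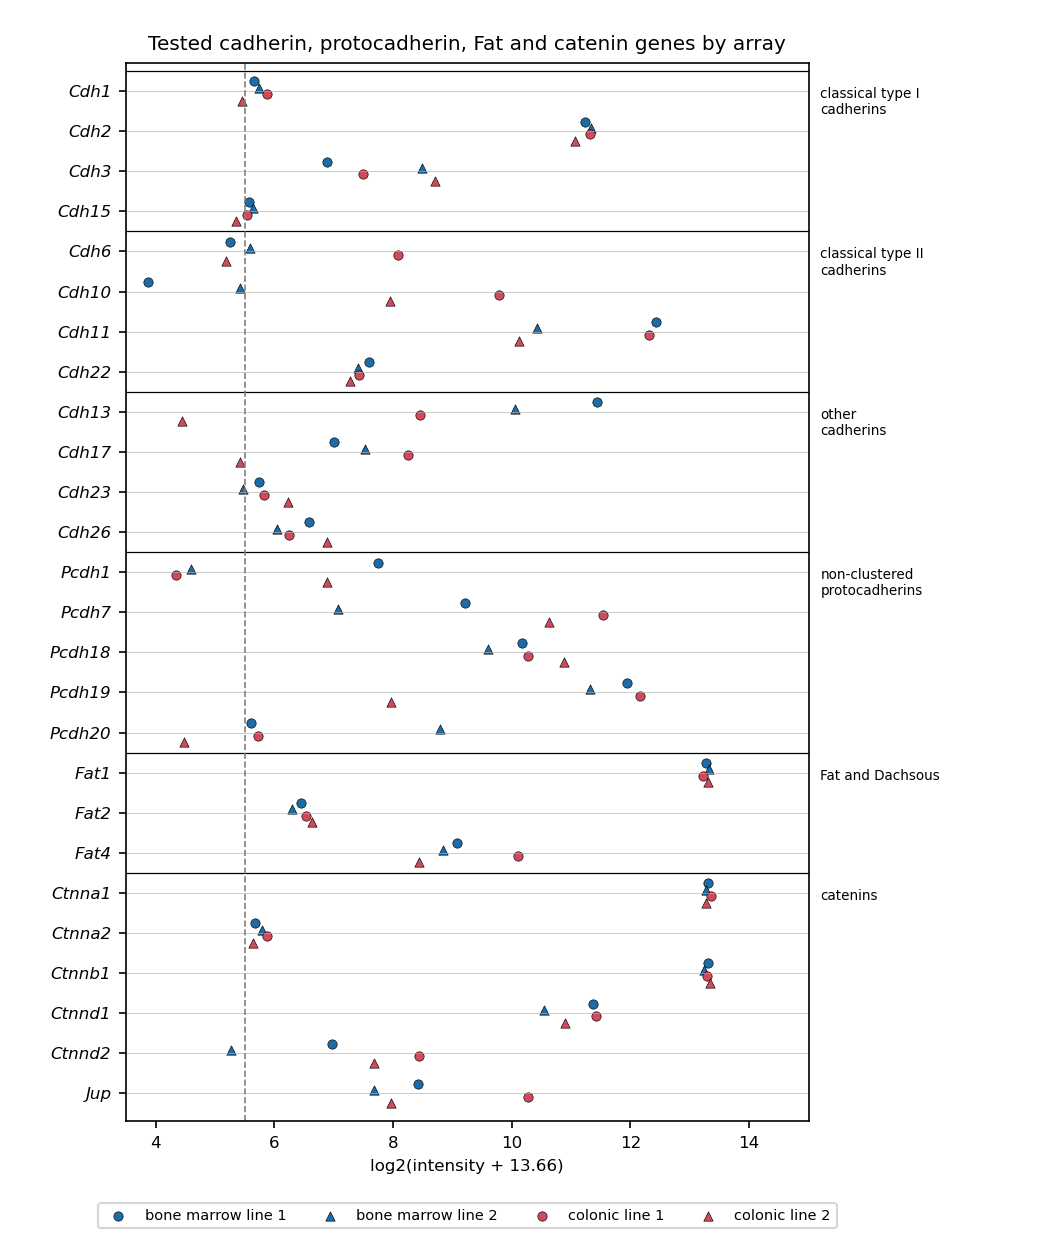
Each row is a tested gene of the family, grouped by class, and each symbol the log2(intensity + 13.66) of 1 array, with bone marrow lines in blue and colonic lines in red (circle, line 1; triangle, line 2), the dashed line marking the filter at an intensity of 31.9. Ctnna1, Ctnnb1 and Fat1 nearly coincide on all 4 arrays, Cdh10 and Pcdh7 lie to the right in both colonic lines, Cdh13 in both bone marrow lines, and Cdh11 and Pcdh19 split lines of the same tissue.

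The classical type I cadherins had 4 of 5 genes tested and differed little between tissues. Cdh2, N-cadherin, the classical cadherin of mesenchymal cells, read 2385 and 2556 in bone marrow lines 1 and 2 and 2542 and 2141 in colonic lines 1 and 2. All arrays overlapped, with a log2 difference of -0.08 ± 0.21 (SE) and a 95% confidence interval from -0.63 to 0.47. Its other probe set differed by -0.23. Cdh1, E-cadherin, of epithelial junctions, lay close to the filter on every array, at 36.9 and 40.1 in bone marrow against 44.8 and 30.0 in colon. Cdh3, or P-cadherin, whose gene is the neighbour of Cdh1 on chromosome 8 in the RefSeq annotation of GRCm38.p6, read 105 and 345 in bone marrow against 166 and 404 in colon. Here line 2 was the brighter line in each tissue, and the tissues overlapped. Cdh15, the muscle cadherin, read 34.1 and 36.2 in bone marrow against 32.9 and 27.3 in colon, close to the filter. Its arrays did not overlap, but the closest were only 1.03-fold apart.

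Among type II cadherins, 4 of 11 genes were tested, and the difference with the smallest p in the whole family was found here. Cdh10, known mainly as a cadherin of neurons, read 1 and 29.3 in bone marrow lines 1 and 2 and 867 and 232 in colonic lines 1 and 2. Both colonic lines were thus above both bone marrow lines, which lay below the filter, and the closest arrays were 5.72-fold apart on the scale with pseudocount. The log2 difference was 4.21 ± 0.84 (SE), with an unadjusted p of 0.00540 and an adjusted p of 0.389 in limma. It lay between 3.29 and 5.13 when each array was left out in turn. Cdh10 was not tested under the 60th percentile filter. Under the other alternatives with all 4 arrays its adjusted p in limma was 0.376 to 0.614. The size of the difference depended on the pseudocount because bone marrow lay near the floor. It was 5.85 with a pseudocount of 1 and 2.91 with the table's median. The 3 other probe sets of Cdh10 stayed at or below 33.6 on all arrays and differed by 0.34, 0.47 and 0.50. Cdh9, the next protein-coding gene on chromosome 15, lay below the filter with at most 11.4.

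Cdh11, the cadherin most often named in stromal and osteoblast cells, did not follow the tissue. It read 5511 and 1361 in bone marrow lines 1 and 2, and 5087 and 1098 in colonic lines 1 and 2. In each tissue line 1 was high and line 2 low, by 2.01 on the log2 scale in bone marrow and 2.20 in colon, whereas the tissues differed by -0.21 ± 1.01 (SE). Its other probe set had the same order, with 885 and 120 in bone marrow against 1094 and 112 in colon. The replicate numbers of the tissues are not known to mark a shared batch or animal. Cdh6, a cadherin of kidney and neural crest, was bright in colonic line 1 alone, at 258 against 22.9 in colonic line 2 and 24.4 and 34.7 in bone marrow. Cdh22 lay between 141 and 181 on all arrays.

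Of the remaining 5 cadherins 4 were tested, and Cdh13 had the lowest p among genes higher in bone marrow. Cdh13, or T-cadherin, the receptor that holds adiponectin at the cell surface, read 2751 and 1052 in bone marrow lines 1 and 2 and 337 and 8.10 in colonic lines 1 and 2. Both bone marrow lines lay above both colonic lines, the closest arrays being 3.04-fold apart, although the lines of each tissue also differed. The log2 difference was -4.30 ± 1.44 (SE), with an unadjusted p of 0.0351 and an adjusted p of 0.743 in limma. Without colonic line 1 it was -6.30 and without colonic line 2 it was -2.29, with an adjusted p of 0.0926 to 1.00 over all alternatives, and -2.52 with the mean of its probe sets. Of its other probe sets, 1 read 821 and 264 in bone marrow against 106 and 26.0 in colon (-2.81), the next differed by -0.46 without overlap, and the last lay below the filter.

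Cdh17, the intestinal or liver-intestine cadherin, read 115 and 170 in bone marrow against 292 and 29.3 in colon, so the colonic lines lay on either side of the bone marrow lines. The colonic line with the higher Cdh17 also had Krt20, a keratin of colonic epithelium, at 889 against at most 29.4 on the other arrays. Over 13 measured markers of intestinal epithelium, 6 of them above the filter, the summed intensity was 543 and 658 in bone marrow, 1653 in colonic line 1 and 375 in colonic line 2. Cdh17 and Krt20 belong to that list. The other 11 markers summed to 398 and 473 in bone marrow lines 1 and 2, against 472 and 316 in colonic lines 1 and 2. Krt20 was left out after its value was seen, which lowers the sum of colonic line 1 most. The part of epithelial cells in these values was not tested. Of all 13 markers, 7 were highest in colonic line 1, 3 in bone marrow line 2, 2 in colonic line 2 and 1 in bone marrow line 1. Epcam, Vil1, Cdx1, Cdx2, Cldn7, Muc2 and Fabp2 lay below the filter. In bulk RNA, fewer cells of a type and less RNA per cell cannot be told apart. Cdh23, a stereocilia cadherin, read 39.9 and 30.6 in bone marrow against 43.0 and 61.5 in colon. Its arrays did not overlap, but the closest were only 1.06-fold apart. Cdh26 read 81.9 and 52.6 in bone marrow against 62.2 and 104 in colon, with overlap.

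**Figure D2:**
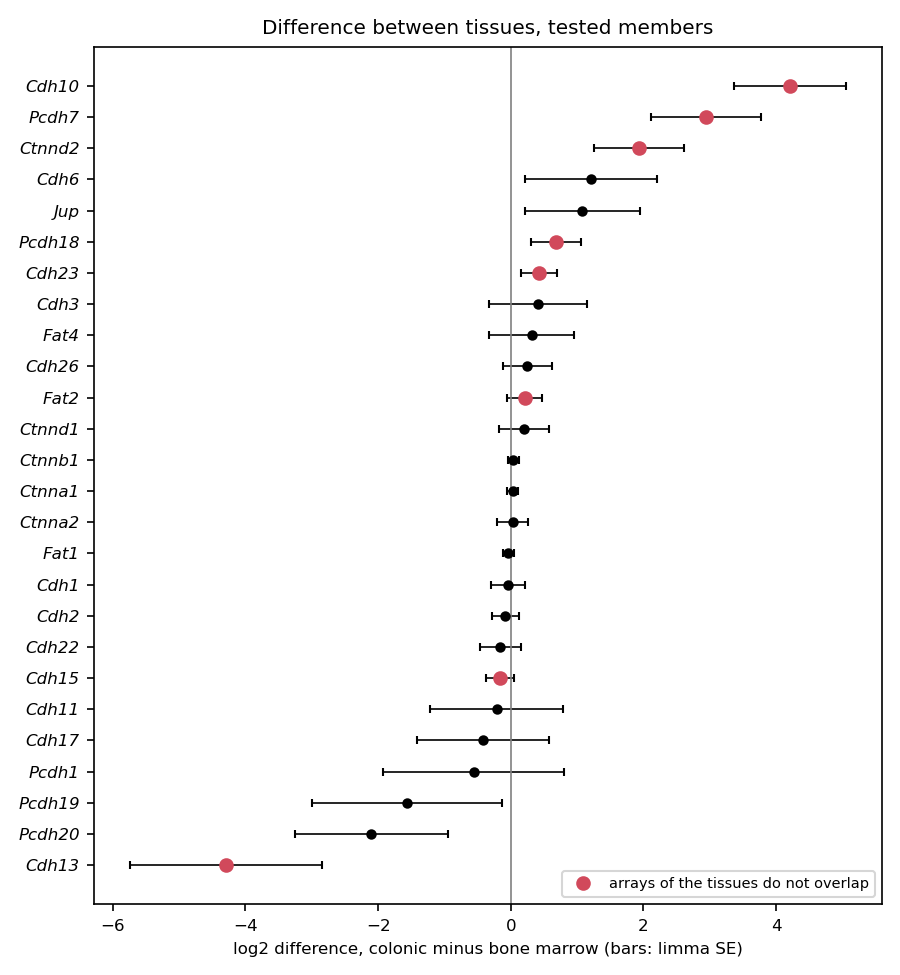
Points give the log2 difference, colonic minus bone marrow, of each tested gene and bars its limma SE (n = 2 lines per tissue), with red points where the arrays of the tissues do not overlap. Cdh10 (4.21), Pcdh7 (2.95) and Ctnnd2 (1.93) lie farthest to the right and Cdh13 (-4.30) farthest to the left, while most genes lie within 1 of zero.

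Non-clustered protocadherins had 5 of 12 genes tested, of which Pcdh7 had the lowest p. Pcdh7, whose tail can bind a protein phosphatase, read 582 and 120 in bone marrow lines 1 and 2 and 2967 and 1574 in colonic lines 1 and 2. Both colonic lines were above both bone marrow lines, with the closest arrays 2.67-fold apart. The log2 difference was 2.95 ± 0.83 (SE), with an unadjusted p of 0.0192 and an adjusted p of 0.649 in limma, and it lay between 1.87 without bone marrow line 2 and 4.02 without bone marrow line 1. A second probe set read 95.6 and 81.7 in bone marrow against 648 and 503 in colon, a difference of 2.52. The last one differed by 0.34, also without overlap, at 134 and 172 against 196 and 196, and the mean of the 3 gave 1.93.

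Pcdh18 pointed the same way to a smaller extent, with 1144 and 764 in bone marrow against 1222 and 1866 in colon. The log2 difference was 0.68 ± 0.38 (SE), with an adjusted p of 0.965 in limma. Its arrays did not overlap, but the closest were only 1.07-fold apart. The other probe sets of Pcdh18 differed by 1.03 and 0.39, again without overlap.

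Pcdh19, whose human counterpart is mutated in an epilepsy of girls, was low in a single line. It read 3900 and 2539 in bone marrow lines 1 and 2, 4569 in colonic line 1 and 235 in colonic line 2. The tissues overlapped, and the log2 difference of -1.56 ± 1.43 (SE) became 0.54 without colonic line 2. All 3 of its probe sets showed this order, with 146 and 13.2 in colonic line 2 for the dimmer ones against at least 1719 and 94.7 elsewhere. Pcdh20 stood out in bone marrow line 2, at 429 against 35.2, 39.1 and 8.61 in bone marrow line 1 and colonic lines 1 and 2. Pcdh1 read 202 and 10.6 in bone marrow against 6.57 and 105 in colon, with a bright and a dim line in each tissue.

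Upstream sequences are shown for 4 of the genes whose values separated the tissues or a single line, to compare their start regions. RefSeq promoter windows on GRCm38.p6 were matched by symbol for 30 of the 45 genes, with 37 start sites. The 250 bases before the start site are given 5′ to 3′ on the gene's strand, with each CG dinucleotide in capitals, for Cdh10 (chr15:18820079-18820328, plus strand), Pcdh7 (chr5:57717831-57718080, plus strand), Ctnnd2 (chr15:30172284-30172533, plus strand) and Pcdh19 (chrX:133688994-133689243, minus strand).
Cdh10: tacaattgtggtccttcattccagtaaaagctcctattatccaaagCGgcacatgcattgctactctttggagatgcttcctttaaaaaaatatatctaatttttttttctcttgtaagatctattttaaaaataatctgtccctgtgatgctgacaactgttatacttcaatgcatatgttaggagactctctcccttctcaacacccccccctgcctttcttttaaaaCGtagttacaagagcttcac
Pcdh7: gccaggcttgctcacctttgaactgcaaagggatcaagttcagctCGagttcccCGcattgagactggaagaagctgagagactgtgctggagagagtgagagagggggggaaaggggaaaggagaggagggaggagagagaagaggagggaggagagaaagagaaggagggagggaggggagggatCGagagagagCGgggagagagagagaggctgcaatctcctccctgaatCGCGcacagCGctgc
Ctnnd2: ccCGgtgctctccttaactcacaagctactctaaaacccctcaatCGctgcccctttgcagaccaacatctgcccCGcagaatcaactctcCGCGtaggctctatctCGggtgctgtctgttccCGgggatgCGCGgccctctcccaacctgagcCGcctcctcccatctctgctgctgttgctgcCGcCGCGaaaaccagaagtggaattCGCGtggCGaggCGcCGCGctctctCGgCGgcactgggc
Pcdh19: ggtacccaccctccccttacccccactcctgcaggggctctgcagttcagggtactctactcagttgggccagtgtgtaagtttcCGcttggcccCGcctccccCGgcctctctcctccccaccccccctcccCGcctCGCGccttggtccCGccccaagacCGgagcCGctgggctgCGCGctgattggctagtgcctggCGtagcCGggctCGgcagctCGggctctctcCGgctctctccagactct
The Cdh10 window is 36.8% G and C and holds 2 CG dinucleotides, a count that 81.2% of all 32851 promoter windows of this length reach or pass. Pcdh7 has 58.4% and 7, Pcdh19 69.2% and 16, and Ctnnd2 62.8% and 21, which 16.3% of all windows reach. At least 1 CG is found in 92.1% of all windows, whose median count is 6, and the 37 windows of the family have a median of 11. The letters CACCTG, the E-box core that Snail and Zeb repressors of Cdh1 bind, or CAGGTG on the other strand, are in none of these 4 windows. They are in 5 of the 37 family windows (13.5%) and in 17.2% of all windows, and a match is a description, not a binding site.

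The giant cadherins had 3 of 5 genes tested. Fat1, a suppressor of growth that also binds actin regulators, read 9927 and 10278 in bone marrow against 9594 and 10118 in colon. These 4 values overlapped and gave a log2 difference of -0.04 ± 0.09 (SE), with a 95% confidence interval from -0.27 to 0.20. Fat4, the receptor of Dchs1, read 524 and 444 in bone marrow against 1091 and 332 in colon, the highest value again being that of colonic line 1. Fat2 read 73.7 and 64.7 in bone marrow against 79.1 and 85.2 in colon, without overlap, but the closest arrays were only 1.06-fold apart. Dchs1, the ligand of Fat4, lay below the filter by its mean over the 4 arrays, although bone marrow line 2, at 46.7, was above it.

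Catenins had 6 of 7 genes tested, and the brightest probe sets of alpha- and beta-catenin had nearly equal values in all lines. Ctnnb1, beta-catenin, read 10120 and 9686 in bone marrow against 9944 and 10391 in colon, with a log2 difference of 0.04 ± 0.09 (SE) and a 95% confidence interval from -0.19 to 0.27. Ctnna1, alpha-catenin, read 10084 and 9838 against 10432 and 9873, a difference of 0.03 ± 0.09 (SE) with an interval from -0.20 to 0.26. The signs of these differences depended on the scaling, being -0.013 for Ctnnb1 and -0.027 for Ctnna1 after quantile normalization. Dimmer probe sets of Ctnnb1 varied more between lines, with 3538 and 3567 in bone marrow against 2804 and 3691 in colon (-0.14) and with 576 and 556 against 528 and 779 (0.18). For Ctnna1 a second bright probe set differed by 0.03, and a dim one read 39.8 and 79.2 against 34.2 and 79.8 (-0.07). Ctnnd1, p120-catenin, keeps cadherins at the surface. Its brightest probe set read 2629 and 1481 in bone marrow against 2723 and 1893 in colon, line 1 being higher in each tissue, as for Cdh11. A second probe set had this order, with 702 and 329 against 902 and 496 (0.47). A dim one did not, with 90.9 and 82.1 in bone marrow against 96.6 and 97.3 in colon (0.14), without overlap.

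Ctnnd2, delta-catenin, a p120 relative known from neurons, was the catenin with the lowest p. It read 112 and 25.1 in bone marrow lines 1 and 2 and 332 and 190 in colonic lines 1 and 2, so both colonic lines lay above both bone marrow lines, the closest by 1.63-fold. The log2 difference was 1.93 ± 0.68 (SE), with an unadjusted p of 0.0406 and an adjusted p of 0.781 in limma, and 1.08 without bone marrow line 2. Its second probe set had 51.0 and 27.2 against 62.7 and 38.2, a difference of 0.29 with overlap, and the mean of both gave 1.11, with an unadjusted p of 0.0891 in limma. Jup, plakoglobin, the catenin shared with desmosomes, read 327 and 191 in bone marrow, 1226 in colonic line 1 and 237 in colonic line 2. Its log2 difference of 1.08 ± 0.86 (SE) was -0.07 without colonic line 1. Ctnna2, the neural alpha-catenin, stayed between 36.2 and 45.4.

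**Figure D3:**
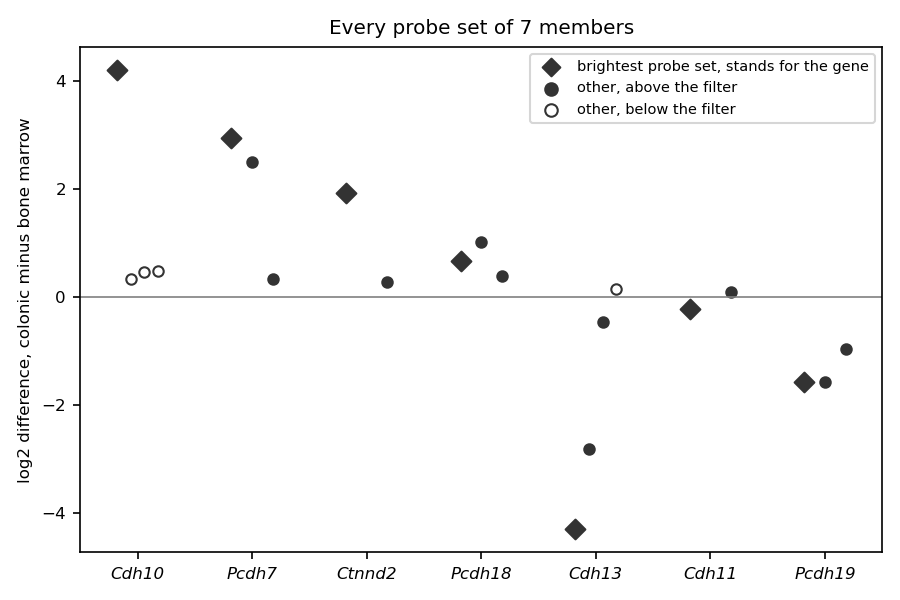
For 7 genes each marker is the log2 difference, colonic minus bone marrow, of a probe set, filled when above the filter and open when below, with a diamond for the brightest one that stands for the gene. Probe sets of Pcdh7 (2.95, 2.52 and 0.34) and Cdh13 (-4.30, -2.81 and -0.46 above the filter) share a sign but not a size, and in Cdh10 only the brightest one differs by more than 1.

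The bone marrow lines differed at least 2-fold from each other in 8 of the 26 genes, where the share of all genes was 11%, and the colonic lines in 11 of 26, where it was 13.6%. Between tissue means, 8 of 26 differed at least 2-fold, beside 9.02% of all genes. A 2-fold difference inside at least 1 tissue was found in 13 of the 26 genes and in 20.5% of all genes. The same filter caution applies to these counts, since a gene bright in a single line could pass by it. Of the 8 genes that differed 2-fold between tissue means (Cdh6, Cdh10, Cdh13, Ctnnd2, Jup, Pcdh7, Pcdh19 and Pcdh20), each also differed 2-fold within at least 1 tissue. Cdh6, Cdh17, Fat4 and Jup, whose tissues overlapped, were highest in colonic line 1. So were Pcdh19, Ctnnd1, Ctnna1, Ctnna2 and Cdh1, also with overlap. Colonic line 1 was highest for 7 of 13 intestinal epithelium, 6 of 10 endothelium and 4 of 8 stromal markers. For macrophage markers it was 4 of 10, for enteric markers 2 of 8 and for osteoblast markers 1 of 4. The share of all genes highest in colonic line 1 is not given here. Of 9 smooth muscle markers, 8 above the filter, 6 were also highest there, but only Des, at 2379 against at most 52.4 elsewhere, and Myh11, at 1123 against at most 43.4, were near the floor in the other lines. The other 7 markers summed to 50295 and 32177 in bone marrow against 58211 and 53920 in colon. This sum leaves out Des and Myh11 after their values were seen. Within it, Cnn1 read 8623 and 33.0 in bone marrow against 11529 and 8477 in colon. Acta2 lay between 15980 and 17010 on all arrays, and the part of these genes in the values was not tested.

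**Figure D4:**
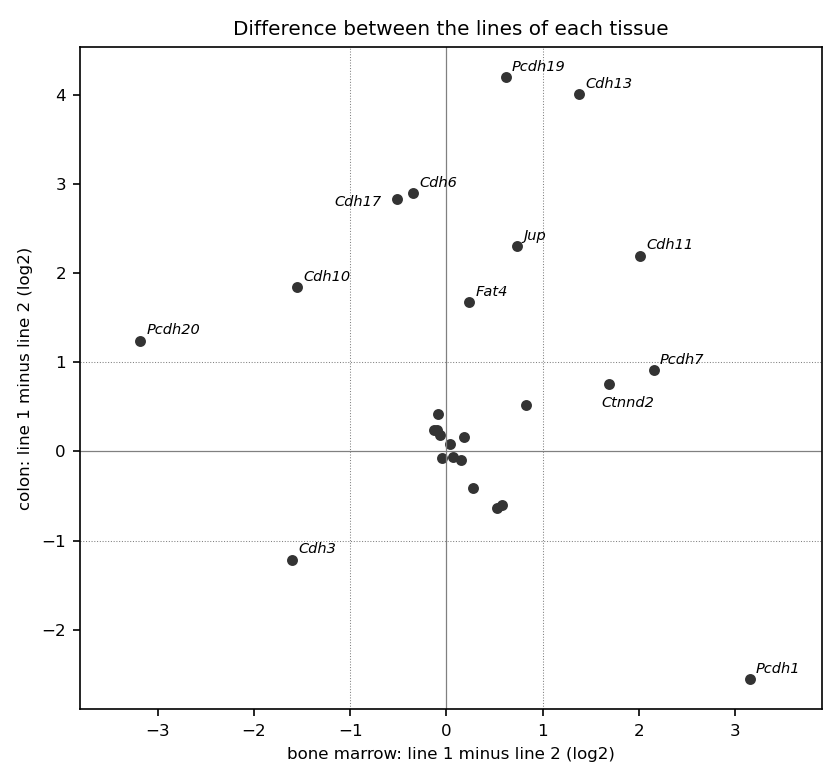
Each point is a tested gene, placed by the log2 difference of line 1 minus line 2 in bone marrow (horizontal axis) and in colon (vertical axis), with dotted lines at 2-fold and names where either difference exceeds it. Cdh11 (2.01 and 2.20) and Cdh3 (-1.60 and -1.21) have the same sign in both tissues, Pcdh1 (3.15 and -2.55) has opposite signs, and Pcdh19 (0.62 and 4.20) is past 2-fold in colon alone.

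Genes that work with cadherins were taken from 9 lists of named genes, and none passed an adjusted p of 0.05 in limma. Of 17 tested nectins and junction scaffold genes 5 had an unadjusted p below 0.05, all higher in colonic MSC, with a median log2 difference of 0.13, where 6% of all genes had such a p and 3.3% were higher. Pvr, a nectin-like receptor, read 1105 and 1547 in bone marrow against 5472 and 5163 in colon, a difference of 2.01 ± 0.24 (SE, adjusted p = 0.142 in limma). Its groups were far apart, with each tissue's lines close together. Nectin2 read 832 and 364 against 1346 and 2411, and the actin crosslinker Actn4 9687 and 9344 against 12596 and 11465, neither with overlap. Nectin2 had an unadjusted p of 0.0620 in limma with the replicate number as a block, and Actn4 of 0.171 with no trend.

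Of 8 tested repressors known to silence Cdh1, 2 had an unadjusted p below 0.05, both lower in colonic MSC (median log2 difference -0.04), beside 2.7% of all genes lower at that p. Snai2, or Slug, read 6622 and 6198 in bone marrow against 3691 and 4206 in colon, differing by -0.70 ± 0.14 on the log2 scale (SE, adjusted p = 0.407 in limma). Tcf4, an E protein that binds E-boxes, read 3997 and 4706 against 2373 and 1689. Twist2 went the other way, with 421 and 1205 against 2092 and 1818. Among 8 tested epithelial junction genes 1, Cldn1, a tight junction claudin, had an unadjusted p below 0.05, beside 6% of all genes, at 73.7 and 298 in bone marrow against 4.51 and 20.9 in colon (list median -0.18). The keratin gene Krt19 had 6223 and 5083 against 1890 and 105, a log2 difference of -3.57 (adjusted p = 0.836 in limma). Without colonic line 1 it was -5.57 with an adjusted p of 0.0476, but colon is then a single array, assumed to vary like bone marrow, and the distance between the colonic lines no longer enters.

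Targets of beta-catenin had 9 genes tested, of which 1, the R-spondin receptor gene Lgr5, had an unadjusted p below 0.05 (list median -0.23), where the share of all genes was 6%. It read 124 and 73.1 in bone marrow against 12.9 and 9.30 in colon, and Lef1, a partner of beta-catenin on DNA, 17.2 and 41.0 against 55.5 and 151. In the Hippo pathway, on which Fat proteins act, 1 of 19 genes was below that p (list median 0.09), again beside 6% of all genes. This was the kinase gene Lats1, at 5332 and 6175 against 3443 and 4253, while Tead3 read 535 and 359 against 1028 and 774 and Yap1 4509 and 4925 against 6708 and 5640. Lats1 had an unadjusted p of 0.244 in limma with the mean of probe sets and 0.0681 with no trend. None of 7 desmosome genes was below an unadjusted p of 0.05 (median -0.08), beside 6% of all genes. Among them Ppl read 46.2 and 52.9 against 32.8 and 36.6, and Dsp, which binds plakoglobin, was at 311 in colonic line 1 and between 11.9 and 64.3 elsewhere.

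Clustered protocadherins, encoded next to each other and not part of the family chosen here, had 11 of 23 genes tested. Of these, 0 had an unadjusted p below 0.05 (median -0.03), where the share of all genes was 6%. Pcdhb3 was at 137 in colonic line 1 and at most 26.8 elsewhere, and Pcdhb19 read 132 and 202 in bone marrow against 95.2 and 128 in colon. Of 4 atypical cadherins 0 were below that p (median -0.37), beside the same 6% of all genes. Ret, a receptor kinase with cadherin-like domains, read 860 and 235 against 105 and 154, and Clstn3 47.5 and 31.1 against 65.1 and 62.0. Of 7 proteases that cut cadherins 0 were below that p (median 0.12), again beside 6% of all genes. Furin read 175 and 168 against 249 and 189, and Mmp3 was at 183 in colonic line 1 and at most 26.5 elsewhere.

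**Figure D5:**
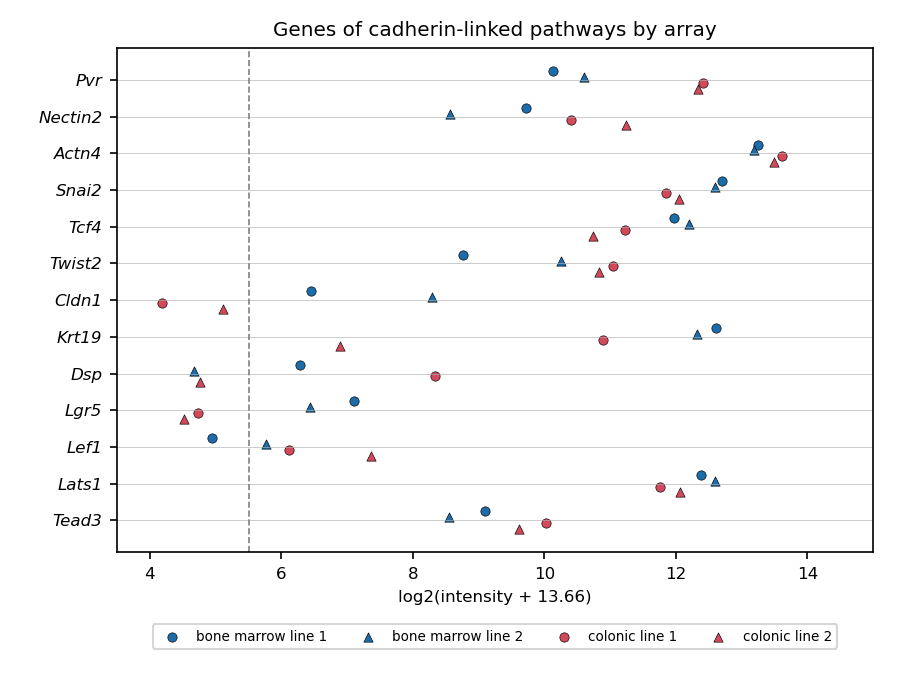
Rows are 13 genes of the cadherin-linked lists and symbols the log2(intensity + 13.66) of each array, with bone marrow lines in blue and colonic lines in red (circle, line 1; triangle, line 2) and the filter as a dashed line. Pvr, Nectin2 and Actn4 are higher in both colonic lines, Snai2, Tcf4, Cldn1, Krt19 and Lgr5 in both bone marrow lines, and Dsp is highest in colonic line 1.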

How the data were processed

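Total RNA of 4 MSC cultures was amplified and biotin-labelled for Affymetrix mouse arrays, per the labels' protocols. The authors deposited an intensity for every probe set, linear by its range. How probes were summarised, background-corrected and scaled is not given in the sources used here. Array medians lay between 53.6 and 55.5, and the scaling was kept. After 64 controls were left out, 34945 probe sets had 1 symbol, 932 several and 9160 none in GEO's platform annotation.

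The pseudocount of 13.66 is 0.25 of the table's median (54.6). A gene's brightest probe set, if above the 40th percentile, stood for it. The fit was limma 3.58.1 (R 4.3.3, lmFit, eBayes with trend), two-sided, with 2 residual and 2.53 prior degrees of freedom. An exact permutation test of 2 against 2 arrays cannot go below p = 0.333. On simulated normal data with planted differences, only the mean size of the estimates was checked. How often such differences are called is not given here.

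Values in every array are given for the 14 tested family members with the lowest p and for members set by role. Up to 3 genes of each list, in order of p, are given by array or by range. Krt20, Des, Myh11, Acta2, Cnn1, Lyz2, Fcer1g, Cd53, Cd14, Csf1r, Tyrobp, Adgre1, Sp7 and Uchl1 were named after their values were seen. Members and lists were chosen with earlier results of these data known. Alternatives were other scalings, pseudocounts, filters, probe set rules and variance models, the replicate number as a block, and each array left out. The number of arrays limits the precision.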

Additional observations from a re-analysis of the deposited data

How the results depend on the processing

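In the family, 0 genes passed an adjusted p of 0.05 under every alternative run. Over all genes the count of 0 became 12 (mean of probe sets), 13 (quantile normalization, and again with no trend), 15 (pseudocount 1, a 60th percentile filter, or robust eBayes), 17 (median centring) and 49 (adjusted p below 0.1), and lay between 0 and 33 with an array left out, the 33 being without colonic line 1. In the main fit the smallest adjusted p over all genes was 0.0502 in limma, just above the threshold. The cause of these changes in count was not tested. Family genes with an unadjusted p below 0.05 numbered 2 in place of 4 under the 60th percentile filter, where 14 members were tested, and between 2 and 6 with an array left out. Those with the closest arrays at least 2-fold apart lay between 3 and 7 with an array left out, numbered 2 with the mean of probe sets (Cdh10, Pcdh7) and 2 under the 60th percentile filter (Cdh13, Pcdh7), and 1, Cdh10, was at least 4-fold apart. Averaging used only probe sets above the filter, and Cdh10 had only its brightest there, so averaging could not change its gap. As a replicate block, the replicate number gave 0 genes past the adjusted threshold and the same 4 and 3 family genes. Deviations of same-numbered arrays correlated with r = 0.106 across genes, and 2 pairs are too few to show whether the numbers pair the samples, so whether they mark a shared origin is not known.

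Signs turned for differences near zero or set by 1 line. Ctnnb1 became -0.013 and Ctnna1 -0.027 with quantile normalization, and Ctnna1 -0.0066 with the mean of probe sets. With each array left out in turn, log2 differences ranged from -0.25 to 0.16 for Cdh1, -0.20 to 0.042 for Cdh2, -0.39 to 1.21 for Cdh3, -0.23 to 2.66 for Cdh6, -1.31 to 0.89 for Cdh11, -1.84 to 0.99 for Cdh17, -0.069 to 0.57 for Cdh26, -2.13 to 1.02 for Pcdh1, -3.67 to 0.54 for Pcdh19, -0.074 to 0.0024 for Fat1, -0.52 to 1.15 for Fat4, -0.013 to 0.067 for Ctnna1, -0.10 to 0.15 for Ctnna2, -0.21 to 0.61 for Ctnnd1, -0.074 to 2.23 for Jup, -0.72 to 2.86 for Dsp and -0.59 to 2.34 for Mmp3.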
